A study of Arabidopsis thaliana with 8 samples.

Results

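Cupins are proteins built on a small barrel-shaped fold, and the storage globulins of seeds, the legumin type and the vicilin type, carry that fold as a pair. Maturing Arabidopsis embryos deposit these globulins in protein storage vacuoles and seedlings break them down after germination. LEAFY COTYLEDON2 (LEC2) is a B3-domain transcription factor of the embryo that is known to switch on seed storage and oil body genes. The genes described here are 5 cupin seed storage protein genes: AT1G03890, of the legumin type; PAP85 (AT3G22640), a vicilin-like globulin; and AT4G36700, AT2G28490 and AT2G18540, which go by their locus names and belong to the cupin family. They were chosen by name, with earlier results of these data known. Each had exactly 1 probe set that the platform annotation assigned to it alone, so 5 of 22746 probe sets are described. Of the 22746 probe sets 13513 carry a single gene, 503 carry several genes and 8730 have no gene listed. A gene said below to have no probe set of its own may still be measured by a shared or unlisted probe set.

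The arrays held whole seedlings of Arabidopsis thaliana, accession Ws-0, aged 8 days, with 2 arrays in each of 4 groups, labelled as biological replicates. Of these groups 3 were of a 35S:LEC2-GR line: without treatment, after 1 h of dexamethasone and after 4 h of dexamethasone. The remaining group was wild type after 4 h of dexamethasone, written WS-O in its titles. The line expresses LEC2 fused to the glucocorticoid receptor from the 35S promoter, which is active in most tissues and not in seeds alone, and the fusion stays inactive until dexamethasone is added. There was no untreated wild type and no wild type at 1 h, and the labels do not say how many independent transgenic lines were used or how many seedlings were pooled. No probe set carried the name LEC2 in the annotation, which lists no gene for 8730 of 22746 probe sets. The level of the transgene is therefore not described.

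Each value is the authors' intensity for a probe set on a linear scale, set to the same trimmed mean on every array. The table has no detection calls, so a low value is described by its percentile among the 22746 probe sets of its own array, against the 40th percentile, which lay at intensities of 100.1 to 119 on the 8 arrays. On the log2 scale the replicates of a group had Pearson correlations of 0.970 to 0.978 over all probe sets. Leaf markers were bright, the lowest of 5 being SBPASE at 8777, and so was the root marker PYK10 at 7633 or more, whereas the other 3 root markers were dimmer and AT3G49960 lay between 1.9 and 43. The seed coat marker BAN lay between 4.1 and 8.1 on all 8 arrays, close to the bottom of the scale. Fewer cells of a type and less RNA per cell cannot be told apart in whole seedlings.

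At 4 h of induction AT4G36700 rose above the level of every other group, while the other 4 cupin genes stayed under the 40th percentile on all 8 arrays. AT4G36700 lay at percentiles of 56.0 and 60.0 on the 4 h arrays and at percentiles of 3.39 to 24.8 on the other 6. The highest percentile of the other 4 genes was 36.2, reached by PAP85 in 1 h replicate 1.

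**Figure D1:**
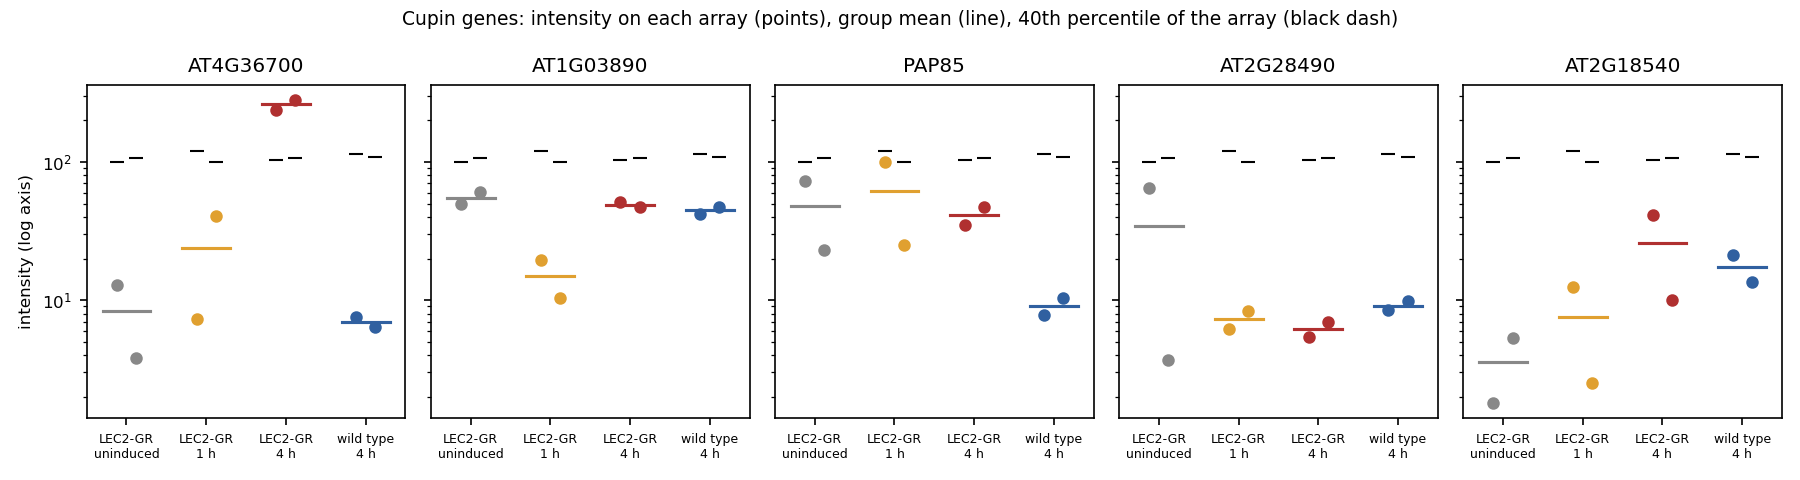
Intensity (log axis) of the 5 cupin genes in uninduced, 1 h and 4 h LEC2-GR seedlings and in wild type seedlings with 4 h of dexamethasone; points are arrays, lines are group means (n = 2) and black dashes mark the 40th percentile of each array. Only the 4 h points of AT4G36700, at 238.5 and 281.9, lie above the dashes.

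AT4G36700, a cupin family protein, had intensities of 12.8 and 3.8 in uninduced seedlings, 7.3 and 40.4 at 1 h, 238.5 and 281.9 at 4 h, and 7.6 and 6.4 in wild type. Both 4 h arrays were above all 6 others and the groups did not overlap. Over groups of 2 arrays the mean was 260 ± 30.7 at 4 h (SD), against 7.0 ± 0.849 in wild type. Among the other 3 groups the order was 1 h (23.9), uninduced (8.3) and wild type (7.0), and these neighbours overlapped.

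On the scale of log2(intensity + 45), AT4G36700 rose by 2.55 at 4 h relative to wild type (SE 0.32, limma adjusted p = 0.0012). The 95% interval of this change was 1.85 to 3.25 at this pseudocount, and since the wild type values lay at percentiles of 7.9 to 8.4 its size is set in part by the 45 added. In this comparison 1 of the 5 cupin genes was called higher and 0 lower at an adjusted p under 0.05, against 3.32% of all 22746 probe sets called in either direction (1.82% higher and 1.50% lower). The median change of the 5 was 0.15, against -0.03 over all probe sets.

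Relative to uninduced seedlings AT4G36700 rose by 2.52 at 4 h (SE 0.32, limma adjusted p = 2.1e-04). Again 1 of the 5 genes was called higher and 0 lower, against 21.0% of all probe sets called in either direction (11.0% higher, 9.94% lower). The median change of the 5 was -0.06, against -0.02 over all probe sets. This comparison and the one with wild type share the 4 h arrays, so their results are not separate evidence.

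A rise was called between 1 h and 4 h, and none was called at 1 h. AT4G36700 was 2.19 higher at 4 h than at 1 h on the log2 scale (SE 0.32, limma adjusted p = 0.0015), the 1 gene of the 5 called there, against 10.1% of all probe sets (5.33% higher, 4.78% lower). At 1 h relative to uninduced seedlings its change was 0.33 (95% interval -0.37 to 1.03, limma adjusted p = 0.626), which rested on replicate 2: without that array it was -0.022. None of the 5 genes was called at 1 h by limma, against 9.13% of all probe sets (5.22% higher, 3.90% lower). Of the 5 genes 1, AT1G03890, had an unadjusted p under 0.05, at 0.0205 (limma adjusted p = 0.139). The share of all probe sets with an unadjusted p under 0.05 was not counted.

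Wild type with 4 h of dexamethasone relative to the uninduced line sets both control groups side by side and mixes treatment, time and transgene. AT4G36700 differed by -0.03 between them (95% interval -0.73 to 0.67, limma adjusted p = 0.970). Of the 5 genes 0 were called by limma, against 17.8% of all probe sets called (9.63% higher, 8.15% lower). By unadjusted p under 0.05 the count was also 0 of the 5, and the share of all probe sets at that level was not counted.

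The size of the change of AT4G36700 depended on what was added before taking logs, because its level in the other groups was near the bottom of the scale. Against wild type it was 5.03 with a pseudocount of 1 (limma adjusted p = 0.015) and 1.75 with a pseudocount of 100. The call against wild type ended when probe sets low on most arrays were filtered out and the pseudocount was 1 (limma adjusted p = 0.207), and under that filter without 4 h replicate 2 (0.062).

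The instrument records place wild type and uninduced arrays early and 1 h and 4 h arrays late in the scanning order, in what may be 2 fluidics runs. The rise from 1 h lies within the later set, whereas run and group cannot be told apart in the comparisons of 4 h with wild type or with uninduced seedlings. The record of 4 h replicate 2 notes high background and leaves the fluidics module blank, so its place in a run is inferred. Without that array the log2 change of AT4G36700 was 2.45 relative to wild type (limma adjusted p = 0.019) and 2.08 relative to 1 h (0.017), with no filter. GAPDH controls, whose 3′/5′ signal ratio reflects RNA integrity, gave 2.46 and 1.59 at 4 h, against 2.74 and 2.66 in wild type. The same ratio of the actin controls was higher, at 9.21 and 8.64 at 4 h, against 10.9 and 12.1 in wild type. The part of RNA integrity in the result was not tested. Between 4 h and wild type, where 3.32% of all probe sets were called, 0 of the 5 leaf markers were called by limma, and of 4 root markers 1 was called higher (AT5G17820) and 2 lower (NAI2 and PYK10). The summed intensity of the leaf markers was 79993 and 88142 at 4 h, against 87889 and 91789 in wild type, and that of the root markers 10049 and 9039 at 4 h, against 14062 and 13262 in wild type. Relative to uninduced seedlings, where the leaf sum was 145941 and 146662, all 5 leaf markers were called lower at 4 h, beside 9.94% of all probe sets. The part of these markers in the result was not tested.

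**Figure D2:**
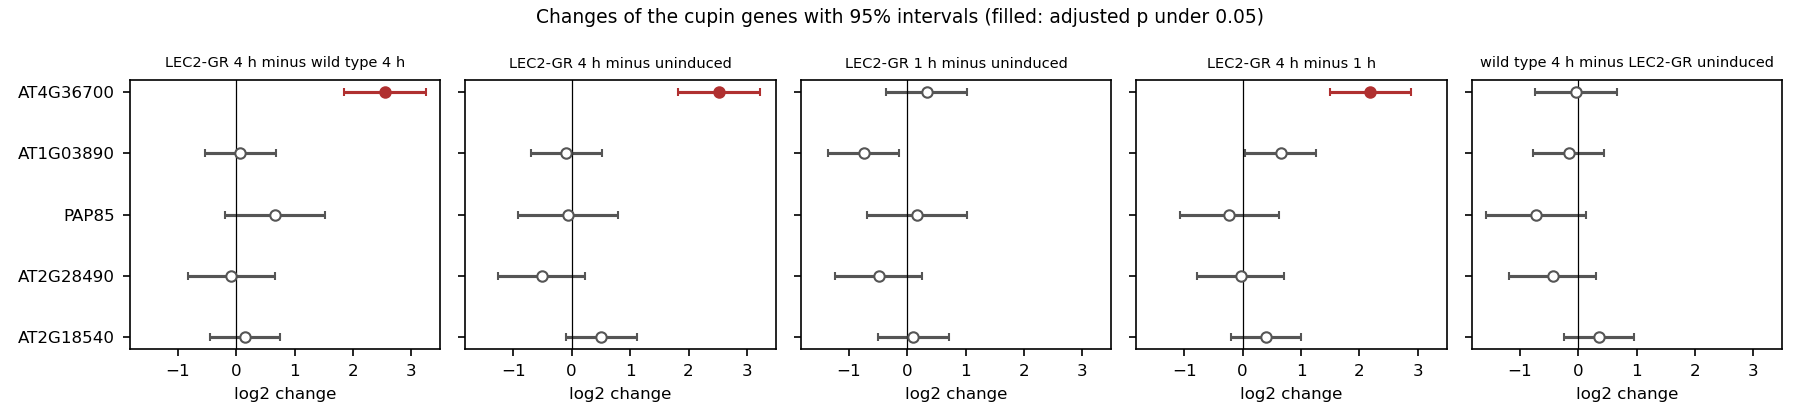
Change of each cupin gene on the scale of log2(intensity + 45) in the 5 comparisons, with 95% intervals from limma over all 8 arrays; filled points have an adjusted p under 0.05. AT4G36700 is filled in the 3 comparisons of 4 h, at 2.55, 2.52 and 2.19, and no other gene is filled.

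AT1G03890, of the legumin-type globulins, had intensities of 49.5 and 60.9 in uninduced seedlings, 19.6 and 10.3 at 1 h, 50.9 and 47.0 at 4 h, and 42.0 and 47.1 in wild type. The 4 h arrays overlapped with the uninduced and with the wild type ones, which did not overlap each other. Both 1 h arrays were below the 6 others, and how many other probe sets separate like AT1G03890 was not counted. At 1 h relative to uninduced seedlings its change was -0.74 (95% interval -1.35 to -0.14), and at 4 h relative to 1 h 0.65 (0.05 to 1.26). Neither passed after adjustment (limma adjusted p = 0.139 and 0.184), though the first did without a mean-variance trend in the fit (limma adjusted p = 0.045). At 4 h its change relative to wild type was 0.07, with a 95% interval of -0.53 to 0.67 and a limma adjusted p of 0.968. Its neighbour in the RefSeq gene order is CRU2, which encodes a cruciferin, the main legumin-type globulin class of Arabidopsis seeds. The annotation named no probe set for CRU2 alone.

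PAP85, a vicilin-like globulin, had intensities of 72.2 and 23.2 in uninduced seedlings, 99.2 and 25 at 1 h, 35.0 and 47.1 at 4 h, and 7.8 and 10.4 in wild type. The 3 groups of the line overlapped, and both wild type arrays were below all 6 arrays of the line. How many other probe sets separate like PAP85 was not counted. At 4 h its change relative to wild type was 0.67 (95% interval -0.19 to 1.52, limma adjusted p = 0.556), and 2.05 with a pseudocount of 1 (limma adjusted p = 0.404). The wild type seedlings differed from the uninduced line by -0.73 (95% interval -1.58 to 0.13, limma adjusted p = 0.254). Within the line the order was 1 h (62.1), uninduced (47.7) and 4 h (41.1), and the replicates at 1 h lay 1.04 apart on the log2 scale.

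AT2G28490, a cupin family protein, had intensities of 65.0 and 3.7 in uninduced seedlings, 6.2 and 8.4 at 1 h, 5.4 and 7.0 at 4 h, and 8.5 and 9.8 in wild type. Uninduced replicate 1 stood apart from the 7 other arrays, none of which passed 9.8. At 4 h its change was -0.08 relative to wild type (95% interval -0.82 to 0.66, limma adjusted p = 0.971) and -0.52 relative to uninduced seedlings (limma adjusted p = 0.351). Without uninduced replicate 1 the change relative to uninduced seedlings was 0.072, and without replicate 2 it was -1.10 (limma adjusted p = 0.024), so that 1 library decided its sign and its call. Wild type relative to uninduced seedlings behaved in the same way, at 0.15 without uninduced replicate 1 and -1.02 without replicate 2 (limma adjusted p = 0.038).

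AT2G18540, also a cupin family protein, had intensities of 1.8 and 5.3 in uninduced seedlings, 12.5 and 2.5 at 1 h, 41.5 and 10.1 at 4 h, and 21.3 and 13.5 in wild type. The 4 h arrays were both above the uninduced ones but overlapped with wild type. At 4 h its change was 0.51 relative to uninduced seedlings (95% interval -0.09 to 1.11, limma adjusted p = 0.244) and 0.15 relative to wild type (95% interval -0.45 to 0.75, limma adjusted p = 0.920). The change relative to wild type was -0.18 without 4 h replicate 1.

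Low values of this kind are noisy on these arrays. Of all probe sets 6723 (29.6%) lay at or under the 40th percentile on all 8 arrays, and their replicates differed by a median of 0.30 and, at the 95th percentile, by 1.08 on the log2 scale. The replicate differences of the 4 low cupin genes lay between 0.03 and 1.18, the largest being that of AT2G28490 in uninduced seedlings. The intervals given for these genes hold for a pseudocount of 45. With a pseudocount of 1 the SE of the change at 4 h relative to wild type was between 0.80 in AT1G03890 and 1.24 in AT2G28490, against 0.27 to 0.39 with 45.

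**Figure D3:**
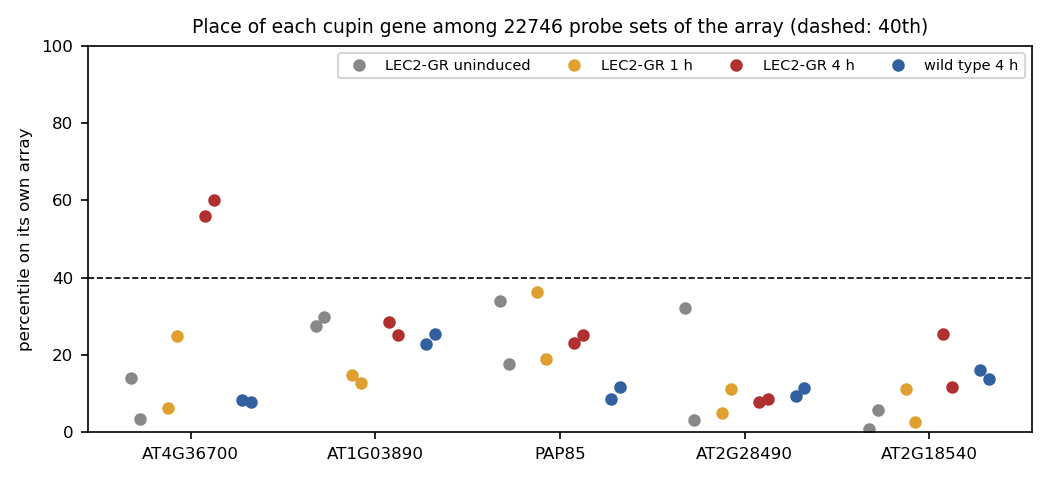
Percentile of each cupin gene among the 22746 probe sets of its own array (vertical axis, 0 to 100), with 2 points per group for uninduced, 1 h and 4 h LEC2-GR seedlings and wild type. The 4 h points of AT4G36700, at 56.0 and 60.0, lie above the dashed 40th percentile, and the highest of the other 4 genes is PAP85 at 36.2.

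The pattern of AT4G36700 was shared by other probe sets. Of all probe sets 48 lay above the 40th percentile on both 4 h arrays and on none of the other 6, a pattern set after the values of AT4G36700 were seen. A single gene was named for 35 of them, AT4G36700 included.

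Likeness to AT4G36700 was measured across the 8 arrays among the 8134 single-gene probe sets that lay above the 40th percentile on at least 2 arrays. The gene most like it in this set was M10, a late embryogenesis abundant protein (Pearson r = 0.980 on the log2 scale). It had 4.1 and 4.8 in uninduced seedlings, 7.7 and 14.3 at 1 h, 471 and 423 at 4 h, and 11.9 and 5.4 in wild type. AT1G24140, a matrix metalloproteinase (r = 0.977), had 119 and 123 at 4 h, against 7.1 and 6.2 in wild type. AT5G19890, a class III peroxidase (r = 0.977), had 709 and 1130 at 4 h, against 115 and 76.6 in wild type. In these genes too both 4 h arrays were above the 6 others.

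AT2G34700, of the Ole e 1 family (r = 0.976), had 3049 and 3233 at 4 h, against 58.5 and 114 in wild type. AT4G22050, an aspartyl protease (r = 0.972), had 206 and 232 at 4 h, against 30.1 and 4.9 in wild type. These 5 genes were the closest by rule, the r values rest on 8 arrays that share 2 high points, and with a pseudocount of 1 they were 0.908 to 0.946. Their differences between 4 h and wild type, 1.68 to 4.63 on the log2 scale, follow from the way they were chosen and are given as a description.

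**Figure D4:**
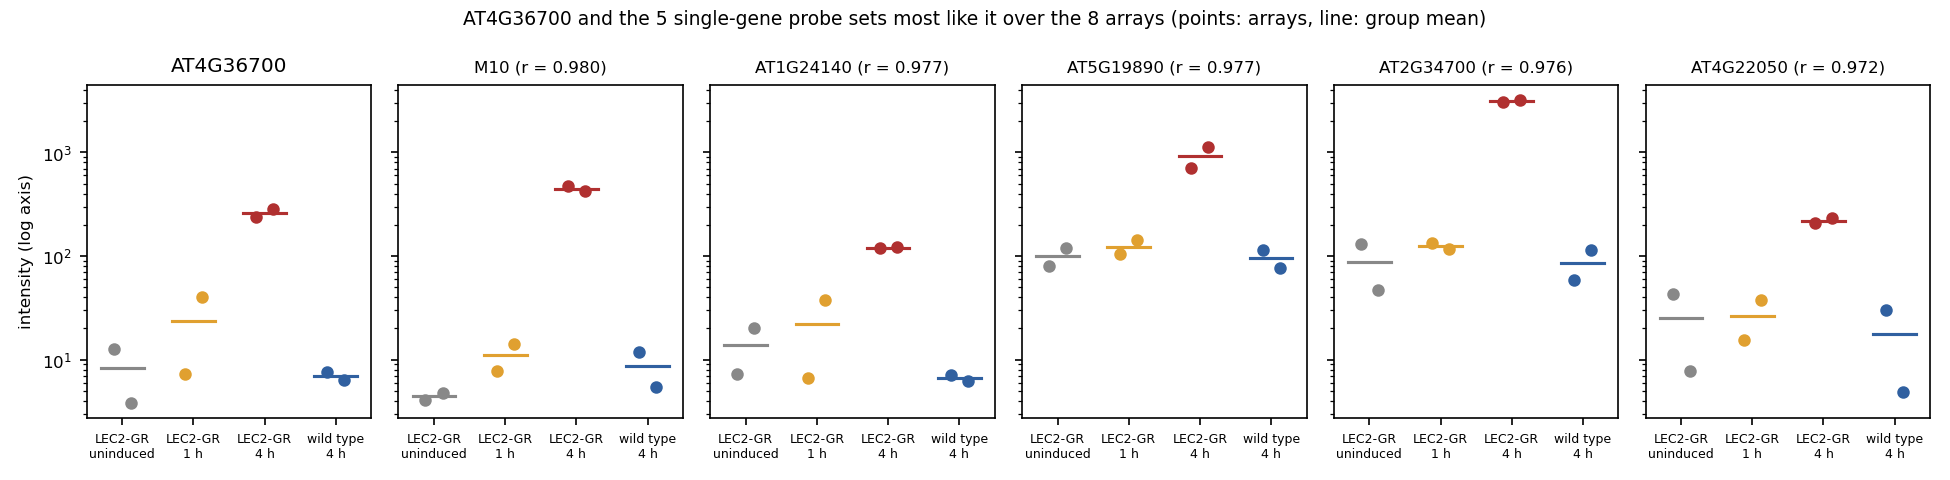
Intensity (log axis) of AT4G36700 and of the 5 single-gene probe sets with the highest Pearson r to it over the 8 arrays; points are arrays and lines are group means (n = 2). In every panel the 2 points at 4 h lie above the other 6, from 119 in AT1G24140 to 3233 in AT2G34700.

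The genes that work alongside the cupins were thinly covered by the annotation. It named no own probe set for 8 further storage proteins (cruciferins and 2S albumins) or 4 repressors of the embryonic programme. The same held for 10 germin-like proteins, which are cupins of the cell wall, so none of these genes is described. The annotation listed no gene for 8730 of 22746 probe sets, so these genes may still be on the array. Of 5 oleosins, which coat oil bodies, 2 had a probe set of their own. OLEO3 had 2647 and 2623 at 4 h, against 40.4 and 80.3 in wild type, and was called higher, while AT3G01570, with 81.7 and 5.8 against 96.2 and 91.5, was not (limma adjusted p = 0.580). The OLEO3 difference from wild type was 4.70 on the log2 scale (limma adjusted p = 4.0e-06). Relative to uninduced seedlings, which had 253 and 139, its rise at 4 h was 3.52 (limma adjusted p = 5.3e-06), and wild type differed from the uninduced line by -1.18 (0.0078).

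Storage protein processing and sorting was represented by 9 of 13 genes, of which 2 were called higher and 0 lower at 4 h relative to wild type, beside 3.32% of all probe sets called in either direction. Relative to uninduced seedlings 1 was called higher and 2 lower, where 21.0% of all probe sets were called. Their median change relative to wild type was -0.04, against -0.03 over all probe sets. The papain-type cysteine protease AT3G54940 had 2834 and 3789 at 4 h, against 8.3 and 15.7 in wild type, a rise of 5.87 on the log2 scale (limma adjusted p = 2.7e-06), which was 8.04 with a pseudocount of 1 and 4.92 with 100. The aspartic protease AT1G62290 had 1003 and 863 at 4 h, against 525 and 600 in wild type, a difference of 0.69 (limma adjusted p = 0.041) that was not called when any 1 of the 4 arrays was left out (0.116 to 0.299). Within the line it differed by -0.06 at 4 h relative to uninduced seedlings (limma adjusted p = 0.853), whereas wild type was 0.75 below the uninduced line (log2 change -0.75, limma adjusted p = 0.0071).

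The vacuolar processing enzymes cleave storage globulins after their arrival in the vacuole. BETA-VPE, known from seeds, had 179 and 218 at 4 h, against 131 and 126 in wild type, a difference of 0.49 that did not pass (limma adjusted p = 0.480). GAMMA-VPE, known from vegetative tissue, fell by 1.37 at 4 h relative to uninduced seedlings (limma adjusted p = 7.7e-05), with 542 and 589 against 1582 and 1491, and it also fell by 1.14 in wild type relative to the uninduced line. APA1, an aspartic protease of the vacuole, fell by 0.72 at 4 h relative to uninduced seedlings (limma adjusted p = 0.0013). Its level in wild type was 0.68 below that in the uninduced line (limma adjusted p = 0.0023). The comparison of wild type with the uninduced line mixes treatment, time and transgene.

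Of 17 seed regulators 3 had a probe set of their own. At 4 h relative to wild type 0 of the 3 were called by limma, beside 3.32% of all probe sets called in either direction. EEL, a bZIP factor of seed maturation, had 223 and 240.0 at 4 h, against 90.8 and 83.8 in wild type, with an unadjusted p of 0.0061 and a limma adjusted p of 0.120. BZIP53, a bZIP activator of seed storage genes, had 1481 and 1347 at 4 h, against 1387 and 1392 in wild type. BBM, an AP2-type factor of embryos, lay between 2.5 and 8.7 on all 8 arrays. Wild type with dexamethasone had less BZIP53 signal than the uninduced line, by 0.40 on the log2 scale (limma adjusted p = 0.043). That comparison, in which 8.15% of all probe sets were called lower, mixes treatment, time and transgene. Relative to uninduced seedlings BZIP53 was also called lower at 4 h of induction, by 0.38, beside 9.94% of all probe sets called lower. BZIP53 was not called with any of the 4 arrays left out, where its change was -0.45 to -0.31.

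The neighbours of the cupin genes in the RefSeq gene order mostly had no probe set named for them alone. The gene before AT4G36700, ATU2AF65A, a splicing factor subunit, had 2177 and 1495 at 4 h, against 1445 and 1619 in wild type (limma adjusted p = 0.649). Beside PAP85, CEG had 26.1 and 4.1 at 4 h, against 29.4 and 7.3 in wild type (limma adjusted p = 0.971). The other 8 neighbours of the 5 genes had no probe set of their own.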

How the data were processed

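Target from polyA RNA was hybridised to Affymetrix ATH1 arrays, 1 per sample. The deposited values are 1 intensity per probe set and array, made with MAS5 per the submitters' processing notes; version and settings are not given in the sources used here. Of 22810 probe sets 64 controls were left out. Names came from the platform annotation, and 13436 of 13513 single-gene probe sets matched RefSeq (TAIR10.1, names and gene order only), where 0 entries held the word cupin.

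Values were taken as log2(intensity + 45), 45 being the 25th percentile of the table, with no filter, so that every cupin gene was tested. All 8 arrays entered limma 3.58.1 (R 4.3.3) with 1 mean per group. The eBayes step used a trend of variance on mean intensity; residual degrees of freedom were 4 and prior ones 6.79. P-values were adjusted by Benjamini-Hochberg over 22746 probe sets per comparison and called under 0.05. An alternative filter kept 15022 probe sets above the 40th percentile on at least 2 arrays; AT4G36700 passed it, through its 4 h arrays alone, and the other 4 cupin genes did not. The fit of 4 h against wild type was tested on simulated data. Genes named are the 5 members, the called genes of each list and the 5 highest correlations; EEL, BBM, BETA-VPE, AT3G01570, the markers and the neighbours were named after their values were seen. The members and lists were chosen with earlier results of these data known. With 2 arrays per group, precision is limited by their number.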

Additional observations from a re-analysis of the deposited data

How the results depend on the processing

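The calls of AT4G36700 at 4 h held with pseudocounts of 1 and 100, the filter on low values, quantile normalization, no mean-variance trend, the replicate block, only the 4 arrays compared, and each array left out in turn; AT4G36700 passed the filter through its 4 h arrays alone, so its call there is not independent of the change. Leaving out 1 array gave log2 changes of 2.45 to 2.65 relative to wild type, 2.40 to 2.64 relative to uninduced seedlings and 1.83 to 2.54 relative to 1 h. Alternatives chosen after seeing the data ended some calls: with the filter and a pseudocount of 1 the changes were 5.03, 5.0 and 3.81 (limma adjusted p = 0.207, 0.0708 and 0.226), and with the filter and without 4 h replicate 2 they were 2.45 relative to wild type and 2.08 relative to 1 h (0.0617 and 0.0602). Applied to the remaining arrays, the filter removed AT4G36700 whenever a 4 h array was left out. Signs turned only in changes that were not called, with 1 array left out. Relative to uninduced seedlings, AT4G36700 at 1 h ranged from -0.022 to 0.69, and in wild type from -0.15 to 0.092, with or without the filter. PAP85 ranged from -0.45 to 0.33 at 4 h and from -0.35 to 0.69 at 1 h, and from -0.75 to 0.29 at 4 h relative to 1 h. PAP85 was 0.043 at 4 h without 4 h replicate 1 and -0.22 at 1 h without uninduced replicate 2. AT2G28490 ranged from -1.10 to 0.072 at 4 h, -1.07 to 0.10 at 1 h and -1.02 to 0.15 in wild type, and AT2G18540 from -0.031 to 0.25 at 1 h and from -0.18 to 0.47 at 4 h relative to wild type. The cause was not tested.

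The 755 probe sets called between 4 h and wild type became 345 without the trend, 249 to 341 with 1 array left out and 494 to 640 with the filter and 1 array left out (498 to 632 when the filter used the remaining arrays). The 4773 called relative to uninduced seedlings became 3065 to 3491 (3962 to 4366 with the filter), and the 2076 at 1 h became 1207 to 1598 (1735 to 2188) and 1315 with only the 4 arrays compared. The 2299 called between 4 h and 1 h became 1207 without the trend, 1434 with only the 4 arrays compared and 1096 to 1907 with 1 array left out (1837 to 2565), and the 4045 called between wild type and the uninduced line 2199 to 2830 (2941 to 3751). Replicate numbers did not pair the arrays: their deviations correlated at -0.0575 to 0.0354 between groups. With the replicate block 721 probe sets were called between 4 h and wild type, AT4G36700 kept its 3 calls (limma adjusted p = 0.0020, 3.6e-04 and 0.0024), and BZIP53 lost its call at 4 h relative to uninduced seedlings (0.0502); no other call on a gene recomputed under the block changed. BZIP53 also lost it with quantile normalization (0.050), and APA1, OLEO3 and AT1G62290 lost calls in some comparisons with 1 array left out. Without the trend calls ended for BZIP53 at 4 h and in wild type relative to uninduced seedlings (limma adjusted p = 0.175 and 0.167), AT1G62290 relative to wild type (0.173), and APA1 and OLEO3 at 1 h (0.0743 and 0.0674). With only the 4 arrays compared they ended for BZIP53 at 4 h (0.0649), AT1G62290 relative to wild type (0.0618), and OLEO3 at 1 h and in wild type relative to uninduced seedlings (0.0743 and 0.0816).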
